A study of Mus musculus with 10 samples.

Results

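De novo purine synthesis was followed through the messenger RNAs of its enzymes in mouse bone marrow carrying acute myeloid leukaemia. The enzymes were chosen by name, in pathway order: Prps1, Prps2, Ppat, Gart, Pfas, Paics, Adsl, Atic, Impdh1 and Impdh2. Of these 10 genes, 9 had an entry among the 10141 genes of the table, and all 9 lay above the filter on low values that left 8079 genes for testing. Impdh1 was not analysed here. GFP+ leukaemia cells were sorted from the bone marrow of CD45.1 recipient mice that had been given MLL-AF9/GFP cells by tail vein, and were compared with GFP-CD11b+ myeloid cells from the marrow of such leukaemic mice, with 5 libraries each. The MLL-AF9 fusion joins the start of a chromatin regulator to AF9 and drives this leukaemia, GFP marks the cells that carry it, and CD11b is an integrin of the myeloid surface. The labels give the genotype MLL-AF9/GFP for all 10 libraries, and no age, strain beyond CD45.1, promoter of the fusion or number of founding clones. One label text describes the myeloid cells as sorted by flow cytometry and another as selected magnetically as CD45.2-CD11b+ cells. Both groups came from diseased marrow, so neither healthy myeloid cells nor normal immature cells were compared, and leukaemia and stage of maturation cannot be told apart.

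Purine nucleotides are built in the cytosol on a ribose phosphate. Phosphoribosyl pyrophosphate (PRPP) synthetases activate the sugar, a chain of enzymes assembles the ring from glutamine, glycine, aspartate, carbon dioxide and folate-borne formyl groups, and inosine monophosphate (IMP) is then turned into AMP or GMP. Dividing cells rely on this route for RNA, DNA and energy carriers, and drugs such as methotrexate, mercaptopurine and mycophenolate act on it or on the folate it consumes. The transcription factor MYC, which binds the letters CACGTG together with MAX, and ATF4 are known regulators of several of its genes.

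Promoter sequences were examined because the mRNAs of all 9 enzymes were higher in leukaemia, though not by a common factor. Of all tested genes, 49.1% were higher. RefSeq windows of 250 bases before to 50 bases after the start (build GRCm38.p6) matched 8 of the 9 genes, all but Pfas. The letters CACGTG, which read the same on both strands, stood in 3 of these 8 windows, against 7.15% of 32851 mouse windows of the same length. Those windows were not limited to expressed or tested genes, so the shares are not matched. The 250 bases before the start of these 3 genes are shown, 5′ to 3′, with CACGTG in capitals. Counted from the start, its first base lay at -203 in Paics (chr5:76951052-76951301, plus strand), at -7 in Atic (chr1:71556906-71557155, plus strand) and at -110 in Impdh2 (chr9:108560186-108560435, plus strand). 
Paics: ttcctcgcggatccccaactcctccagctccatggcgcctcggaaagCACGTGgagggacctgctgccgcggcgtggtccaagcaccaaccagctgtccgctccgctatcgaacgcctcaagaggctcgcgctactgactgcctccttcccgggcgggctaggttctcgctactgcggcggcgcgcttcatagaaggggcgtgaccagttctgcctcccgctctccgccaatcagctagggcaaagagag
Atic: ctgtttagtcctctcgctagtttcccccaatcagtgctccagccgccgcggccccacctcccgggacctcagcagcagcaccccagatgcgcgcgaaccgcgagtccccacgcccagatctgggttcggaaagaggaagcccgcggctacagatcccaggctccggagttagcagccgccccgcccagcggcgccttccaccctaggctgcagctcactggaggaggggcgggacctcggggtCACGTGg
Impdh2: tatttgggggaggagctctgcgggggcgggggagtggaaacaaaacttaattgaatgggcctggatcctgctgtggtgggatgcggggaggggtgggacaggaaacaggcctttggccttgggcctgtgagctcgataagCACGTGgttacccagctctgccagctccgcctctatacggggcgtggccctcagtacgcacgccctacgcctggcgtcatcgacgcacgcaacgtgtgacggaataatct
The letters CCAAT, searched on both strands, stood in 5 of the 8 windows, against 37.4% of all windows. TGATGCAA, the core of amino acid response elements, was searched on both strands and found in none of the 8, against 0.895% of all windows. With so rare a motif, none in 8 windows is the likely outcome for any genes, so its absence says nothing about ATF4. None of these motifs contains another. Such matches describe letters in a window and not binding. The Paics window lies past the start of its neighbour Ppat on the other strand, so its CACGTG stands within the Ppat gene too.

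The 10141 genes of the table held 24099551 to 30879571 recovered reads per leukaemia library and 24712749 to 32247804 per myeloid library, where reads were recovered by inverting the deposited log2 values. Levels are given as normalised reads, that is reads divided by each library's size factor. The table is one of genes already selected for a difference: the highest unadjusted p of any gene in it was 0.243, and 99.8% of the 8079 tested genes passed an adjusted p of 0.05 in either direction (limma, Benjamini-Hochberg). A passing p alone therefore says little, and direction, size and overlap are read against the table. The labelled cell types were checked against their markers. All 6 tested genes of the MLL fusion programme were higher in leukaemia, among them Hoxa9 with 3215 ± 329 normalised reads in leukaemia, against 15.96 ± 5.30 in myeloid cells (SD, n = 5 each). The 7 genes of this list with an entry summed to 261 to 373 normalised reads per myeloid library. A gene as low as Hoxa9 in myeloid cells passes the filter on low values (about 145 normalised reads) only if it is high in leukaemia. Its direction was thus fixed by the filter, and the count of 6 is no support. All 12 mature neutrophil genes were lower, summing to 73094 to 76699 normalised reads in leukaemia libraries against 2872880 to 4540720 in myeloid libraries.

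All 9 enzymes were higher in leukaemia than in myeloid cells and none was lower, where 49.1% of the tested genes were higher. The groups did not overlap for any of the 9 enzymes, which was so with leukaemia above for 42.4% of tested genes. A log2 difference of at least 1 was reached by 8 of the 9, all but Prps2, against 9.52% of tested genes. This cut is on the deposited scale, which shrinks changes at lower counts, so reaching it depends on a gene's level too. In mean normalised reads Prps2 was 2.54-fold higher. The median log2 difference of the 9 was 1.36, with a median fold of 3.31 in mean normalised reads, beside a median of -0.16 and 0.862-fold over all tested genes. Summed over the 9 enzymes, the leukaemia libraries held 32650, 34611, 33658, 33355 and 34170 normalised reads, and the myeloid libraries 8338, 12455, 8880, 9666 and 8495. The lowest leukaemia sum lay well above the highest myeloid sum. As a share of the reads of the table, this was 0.150% ± 0.0033 in leukaemia, against 0.0272% ± 0.0031 in myeloid cells (SD, n = 5 each). Rescaling libraries to the table's total would multiply each fold of leukaemia over myeloid reads by about 1.56. The reason is that the genes of the table sum to more normalised reads in myeloid libraries. Folds given as lower would be divided by as much, and folds of ratios within a library would not change. In bulk samples such as these, fewer cells with a transcript and less of it per cell cannot be told apart.

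**Figure D1:**
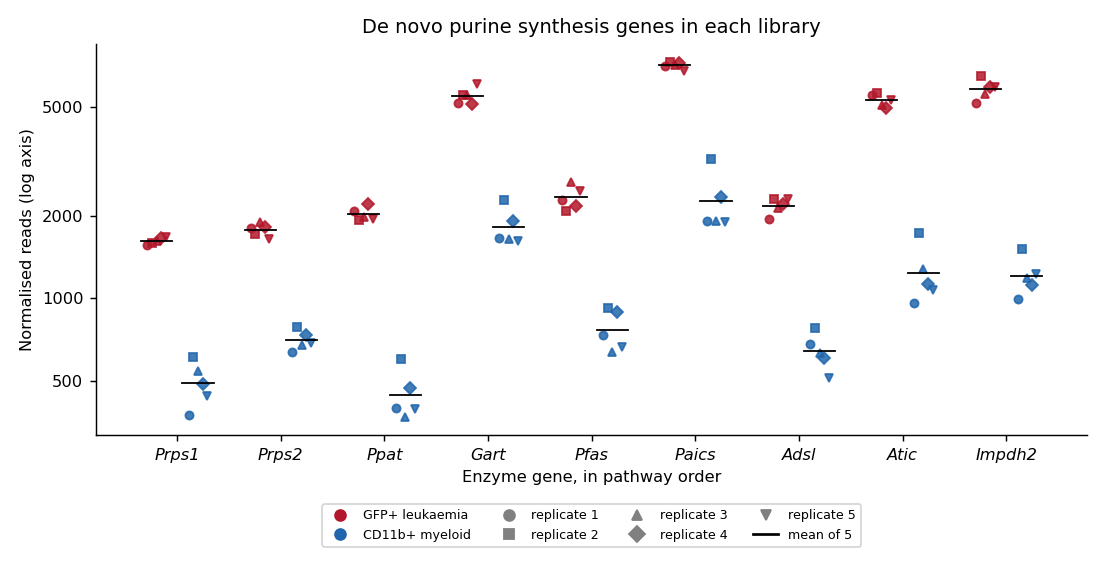
Normalised reads (log axis) of the 9 enzyme genes in each library, in pathway order, with GFP+ leukaemia libraries on the left (red) and CD11b+ myeloid libraries on the right (blue) of each gene. Points are single libraries, marker shapes are replicate numbers and bars are means of 5. The groups are separate for every gene, and myeloid replicate 2 is the highest myeloid library for all 9.

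The pathway starts from ribose phosphate, which Prps1 and Prps2, the PRPP synthetase isoforms, activate. Prps1 had 1561, 1597, 1614, 1665 and 1673 normalised reads in leukaemia replicates 1 to 5, against 375, 609, 543, 484 and 438 in myeloid replicates 1 to 5. Its means were 1622 ± 46.9 in leukaemia, against 490 ± 90.6 in myeloid cells (SD, n = 5 each), a 3.31-fold difference (log2 difference 1.14, SE 0.067, limma adjusted p = 3.23e-09). Leukaemia libraries were nearly level for Prps1, with a coefficient of variation (CV) of 2.89%. Prps2 had 1813, 1725, 1899, 1814 and 1642 normalised reads in leukaemia, against 634, 782, 672, 733 and 683 in myeloid cells. Its difference was the smallest of the 9 enzymes at 2.54-fold (log2 difference 0.94, SE 0.053, limma adjusted p = 2.25e-09), and it was also the enzyme that varied least among myeloid libraries, with a CV of 8.22%.

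Ppat, the amidophosphoribosyltransferase, takes the first committed step by moving an amide nitrogen from glutamine onto PRPP, and is inhibited by the pathway's end products. It had 2090, 1938, 1985, 2206 and 1951 normalised reads in leukaemia, against 395, 598, 366, 469 and 393 in myeloid cells. This made a 4.58-fold difference (log2 difference 1.47, SE 0.072, limma adjusted p = 5.82e-10), and even the lowest leukaemia library held 3.24 times the highest myeloid one. Gart, a protein with several activities that adds glycine, a formyl group and closes the imidazole ring, had 5188, 5534, 5534, 5155 and 6057 normalised reads in leukaemia, against 1658, 2281, 1649, 1914 and 1613 in myeloid cells. Its fold was 3.01 (log2 difference 1.36, SE 0.080, limma adjusted p = 3.28e-09). The groups were as cleanly apart as for Ppat, although the gap between the nearest libraries was narrower at 2.26 times.

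Pfas, which brings in a further nitrogen from glutamine, had 2289, 2084, 2669, 2168 and 2474 normalised reads in leukaemia, against 732, 921, 636, 887 and 663 in myeloid cells. At 3.04-fold (log2 difference 1.17, SE 0.080, limma adjusted p = 1.36e-08) it was close to Gart, and it was the enzyme with the widest spread among leukaemia libraries (CV 10.1%). Paics, which carboxylates the ring and joins aspartate to it, had 7048, 7328, 7139, 7263 and 6800 normalised reads in leukaemia, against 1916, 3240, 1915, 2336 and 1900 in myeloid cells. Its fold was 3.15 (log2 difference 1.47, SE 0.11, limma adjusted p = 2.91e-08). Paics combined a narrow spread in leukaemia (CV 2.91%) with the widest in myeloid cells (CV 25.5%), where replicate 2 stood above the rest.

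Adsl, adenylosuccinate lyase, works both in the ring assembly and in the making of AMP from IMP. It had 1952, 2305, 2141, 2203 and 2312 normalised reads in leukaemia, against 677, 781, 633, 606 and 511 in myeloid cells. The fold was 3.40 (log2 difference 1.25, SE 0.069, limma adjusted p = 1.75e-09), again with no overlap. Atic, which adds the last formyl group and closes the ring to IMP, had 5523, 5621, 5106, 4980 and 5314 normalised reads in leukaemia, against 960, 1733, 1280, 1123 and 1071 in myeloid cells. Its difference was 4.31-fold (log2 difference 1.75, SE 0.098, limma adjusted p = 2.12e-09), which placed it 124th of the 8079 tested genes from the highest.

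Impdh2, the IMP dehydrogenase isoform known to rise in proliferating cells, commits IMP to GMP. It had 5186, 6480, 5571, 5901 and 5947 normalised reads in leukaemia, against 990, 1510, 1187, 1114 and 1224 in myeloid cells. With 4.83-fold (log2 difference 1.88, SE 0.081, limma adjusted p = 2.12e-10) it had the largest difference of the 9 enzymes and the 96th highest of all tested genes. Its lowest leukaemia library held 3.43 times the reads of its highest myeloid library, the widest such gap among the 9, whereas for Prps2 and Paics the gap was 2.10 times.

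Some of these reads may have been shared with near-identical sequence. In the GENCODE transcripts at hand, 73.9% of the 50-base stretches of the principal Impdh2 transcript also occur in the processed pseudogene Impdh2-ps, so the level of Impdh2 is uncertain by however the authors' counting split such reads. Prps1 shares 10.1% of its stretches with Prps1l3, Gart 14.2% with Gm15964, Paics 9.17% with its neighbour Ppat and Ppat 5.67% with Paics. Ppat and Paics lie head to head and overlap at their 5′ ends on opposite strands, and no source used here gives the strand setting of the counting, so reads from the overlap cannot be told apart. For Pfas, Adsl, Atic and Prps2 the shared part was 1.45% or less.

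**Figure D2:**
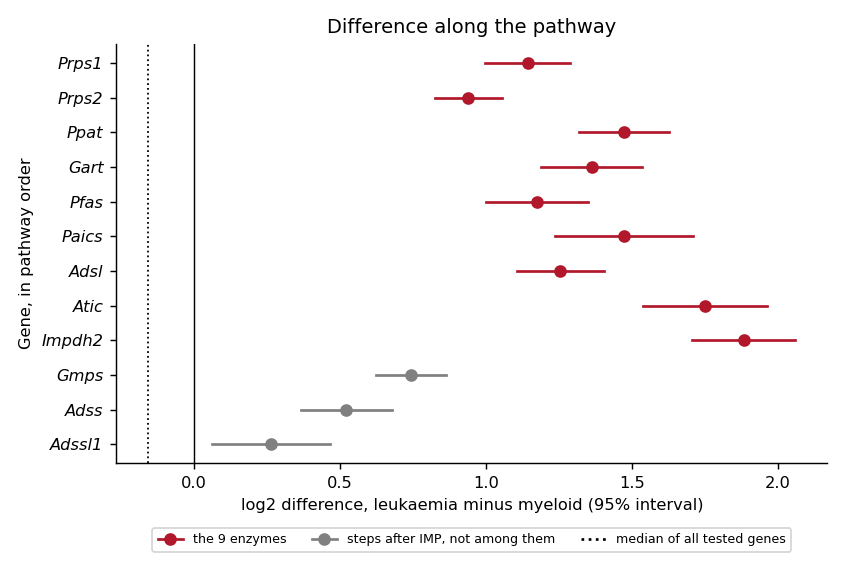
Log2 difference of deposited values, leukaemia minus myeloid, with 95% intervals from the limma fit over 5 libraries in each group, for the 9 enzymes (red) and the genes that follow IMP without being among them (grey), in pathway order from top to bottom. The 9 enzymes run from 0.94 (Prps2) to 1.88 (Impdh2), above Gmps, Adss and Adssl1, and the dotted line is the median of all tested genes at -0.16.

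Reads per kilobase of the principal GENCODE transcript allowed the enzymes to be ordered by level. In leukaemia the order was Impdh2 (3131 ± 258 normalised reads per kilobase), Paics (2867 ± 83.4), Atic (1866 ± 95.1), Gart (1562 ± 103), Prps1 (825 ± 23.9), Adsl (588 ± 39.8), Ppat (511 ± 28.5), Prps2 (481 ± 26.5) and Pfas (367 ± 37.1; SD, n = 5). Neighbours in this order did not overlap across libraries, except Impdh2 with Paics, Adsl with Ppat and Ppat with Prps2. Myeloid cells had Paics first (911 ± 233 normalised reads per kilobase), then Impdh2 (649 ± 104), Gart (518 ± 80.4), Atic (433 ± 106), Prps1 (249 ± 46.1), Prps2 (189 ± 15.6), Adsl (173 ± 26.7), Pfas (120 ± 20.3) and Ppat (112 ± 23.6). There every neighbouring pair overlapped except Atic and Prps1. The order depends on the length used: per kilobase of the union of all exons, Paics comes before Impdh2 in leukaemia and Atic moves to the fifth place there and the sixth in myeloid cells.

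The enzymes did not differ between the groups by one common factor. For each of the 36 pairs of enzymes, the ratio of their reads within a library was compared between the groups, which does not depend on how libraries are scaled to each other. By exact two-sided permutation over all assignments of the libraries, 23 of the 36 ratios differed at an adjusted p under 0.05, and in 19 the groups did not overlap. The share of differing ratios among pairs of other genes was not computed. As 99.8% of tested genes differed between the groups, these counts are not read as particular to the enzymes. All 8 pairs with Prps2 passed (adjusted p 0.0150 to 0.0497), each with the smaller difference for Prps2. The remaining enzymes were grouped after these values were seen, so the p-values that follow do not test this grouping. Ppat, Atic and Impdh2 differed more than Prps1, Gart, Pfas, Paics and Adsl in all 15 pairs between them (exact permutation, adjusted p 0.0150 to 0.0286). For Ppat this depends on the scale: as differences of the deposited log2 values, 27 of the 36 pairs passed, 13 of these 15 among them, and Ppat could not be told from Paics (log2 difference 1.47 for both) or Gart. After quantile normalisation Ppat, at 1.55, lay below Paics (1.88) and Gart (1.74). Atic and Impdh2 differed more than those 5 enzymes on the deposited scale too, and all 8 pairs with Prps2 passed there. None of the 10 pairs among Prps1, Gart, Pfas, Paics and Adsl passed, with log2 differences of the ratio of -0.18 to 0.14 (4 passed on the deposited scale), and none of the 3 pairs among Ppat, Atic and Impdh2 did, with -0.15 to 0.08 (2 passed on the deposited scale). Missing the threshold does not show that these enzymes differed by the same factor.

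The PRPP synthetase isoforms make one such pair. Prps1 reads were 0.861, 0.926, 0.850, 0.918 and 1.02 times Prps2 reads in the leukaemia libraries, against 0.592, 0.778, 0.809, 0.661 and 0.640 times in the myeloid libraries. The groups did not overlap, and the ratio was 1.32-fold higher in leukaemia (log2 difference 0.40, exact two-sided permutation p = 0.00794, the smallest this design can give; adjusted p = 0.0150 over 36 pairs). As Prps1 shares sequence with Prps1l3, itself 2.46-fold higher in leukaemia (1321 ± 73.5 normalised reads in leukaemia, against 537 ± 52.8 in myeloid cells), how reads were divided between them bears on this ratio and was not tested. Ppat and Paics, the head-to-head neighbours, stood at a ratio of 0.286 ± 0.0155 in leukaemia, against 0.198 ± 0.0097 in myeloid cells (SD, n = 5 each), 1.44-fold higher in leukaemia.

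After IMP, the routes to GMP and AMP divide. Gmps, GMP synthetase, which follows Impdh2, had 2743 ± 102 normalised reads in leukaemia, against 1435 ± 119 in myeloid cells, 1.91-fold higher (limma log2 difference 0.74, adjusted p = 3.16e-08). Adss, the adenylosuccinate synthetase that opens the AMP route, was 1.49-fold higher (6672 ± 422 in leukaemia, against 4492 ± 444 in myeloid cells, limma log2 difference 0.52). Its relative Adssl1, better known from muscle, was 1.21-fold higher (7155 ± 487 in leukaemia, against 5918 ± 893 in myeloid cells, limma log2 difference 0.26, adjusted p = 0.016), and its groups overlapped. All of these differences were smaller than that of Impdh2. For this branch, 4 ratios were chosen after the values were seen and tested. As Impdh2 shares 73.9% of its stretches with Impdh2-ps, how reads were divided between them bears on the ratios with Impdh2. That was not tested. The Impdh2 to Gmps ratio was 2.13 ± 0.217 in leukaemia, against 0.838 ± 0.0873 in myeloid cells (SD, n = 5 each), 2.54-fold higher. Impdh2 to Adss was 3.26-fold higher in leukaemia, Impdh2 to Adssl1 3.99-fold and Gmps to Adss 1.29-fold. In all 4 the groups did not overlap, which fixes the exact permutation p at the smallest this design can give (0.00794). As the ratios were picked with their values known, that p is no further support.

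The list of steps from IMP to the nucleoside diphosphates and triphosphates held 17 symbols, of which 9 were tested, 8 higher and 1 lower (median log2 difference 0.74, against -0.16 over all tested genes). Nme4, a mitochondrial nucleoside diphosphate kinase, had the highest difference, with 725 ± 129 normalised reads in leukaemia, against 30.2 ± 22.4 in myeloid cells (24.04-fold). Its cytosolic relatives Nme1 (4.05-fold) and Nme2 (2.33-fold) were higher as well. Ak3, a mitochondrial kinase that uses GTP, was the lower one at 1.71-fold, and did not pass when libraries were rescaled to the table's total. 

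Genes around PRPP and the pentose phosphate pathway, which makes ribose phosphate, moved both ways. Of 9 tested, 3 were higher and 6 lower (median log2 difference -0.43), a balance that became 4 higher and 4 lower with a median of 0.07 when libraries were rescaled to the table's total. G6pdx, which opens the oxidative branch, was 3.92-fold lower (8012 ± 676 normalised reads in leukaemia, against 31377 ± 5200 in myeloid cells). Tkt, transketolase and the most abundant of the list, was 1.87-fold lower (28741 ± 2159 in leukaemia, against 53609 ± 9816 in myeloid cells). Both kept that call under each scaling tried, but for Tkt the log2 difference shrank to -0.20 after quantile normalisation and -0.25 when rescaled, against -0.87 as deposited. The regulatory partners of PRPP synthetase moved little: Prpsap1 was 1.46-fold higher, and Prpsap2 was 1.16-fold higher but did not pass after quantile normalisation.

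Salvage genes, which reuse purine bases and nucleosides, were higher in 7 of 10 tested cases and lower in 3 (median log2 difference 0.38). Hprt, which returns hypoxanthine and guanine to IMP and GMP, had 4633 ± 179 normalised reads in leukaemia, against 2879 ± 307 in myeloid cells (1.61-fold higher). Aprt, its counterpart for adenine, was 1.31-fold higher. Slc43a3, a nucleobase transporter, was 2.59-fold higher, while Dck, the deoxycytidine kinase that also accepts purine deoxynucleosides, was 2.73-fold lower (2426 ± 201 in leukaemia, against 6631 ± 1130 in myeloid cells). The other 2 lower genes, Slc28a2 and Slc29a3, lost that call or turned higher under the other scalings.

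Of 13 tested breakdown genes 8 were lower and 5 higher, where 4097 of the 8079 tested genes were lower. By count this is not far from the table's own share. Their median log2 difference was -1.14, against -0.16 over all tested genes. Xdh, the xanthine dehydrogenase that ends in uric acid, had 2748 ± 620 normalised reads in leukaemia, against 32147 ± 3154 in myeloid cells (11.7-fold lower). Gda, guanine deaminase, was 3.50-fold lower, and Samhd1, which cleaves deoxynucleoside triphosphates, was 6.43-fold lower. Ampd2, an AMP deaminase that leads back to IMP, was 2.14-fold higher, whereas its relative Ampd3 was 3.88-fold lower. The 8 lower genes were lower under each scaling tried, and Nudt16 among the higher ones was not called after quantile normalisation.

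**Figure D3:**
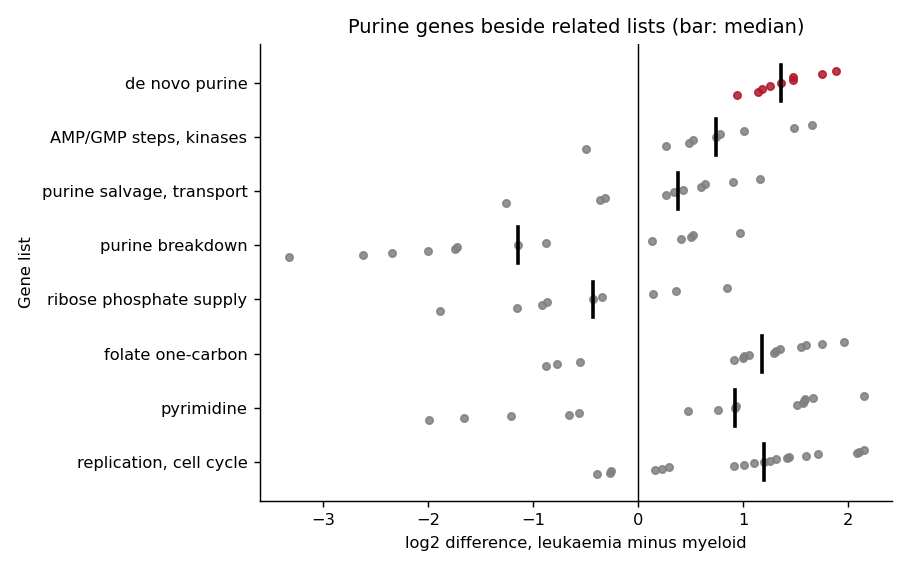
Log2 difference of deposited values, leukaemia minus myeloid, for each tested gene (points) and the median (black bar) of the de novo purine enzymes (red) and 7 related lists (grey). On this scale every de novo enzyme lies at 0.94 or above, while every other list shown has genes on both sides of 0. When libraries were rescaled to the table's total, all 19 replication and cell cycle genes were higher. The lists differ in breadth: the pyrimidine list holds salvage and breakdown genes beside those of de novo synthesis.

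Folate genes carry the formyl groups used by Gart and Atic, and 11 of 14 tested were higher and 3 lower (median log2 difference 1.17). Shmt2, the mitochondrial serine hydroxymethyltransferase, had 5117 ± 517 normalised reads in leukaemia, against 963 ± 358 in myeloid cells (5.32-fold higher). Mthfd1, which makes formyl-tetrahydrofolate in the cytosol, was 5.55-fold higher, and Mtr, methionine synthase, 3.03-fold higher. Ggh, which trims the glutamate tail of folates, was 2.36-fold lower. Pyrimidine genes were higher in 10 of 15 tested cases and lower in 5 (median log2 difference 0.92). Cad, which carries the opening steps of pyrimidine synthesis, had 5079 ± 217 normalised reads in leukaemia, against 767 ± 156 in myeloid cells (6.62-fold higher). The later genes of de novo pyrimidine synthesis were higher too: Dhodh (limma log2 difference 0.76), Umps (1.58) and the CTP synthase gene Ctps (1.57). A uniform rise was thus not particular to the purine enzymes. Upp1, uridine phosphorylase, was 72.8-fold lower (12.9 ± 11.8 in leukaemia, against 942 ± 491 in myeloid cells). Cmpk1, a pyrimidine monophosphate kinase and the most abundant of the list, was 1.55-fold lower but was not called under the other scalings.

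Among regulators the balance was mixed, with 3 of 8 tested higher and 5 lower (5 higher and 3 lower when rescaled to the table's total). Atf4 was not among the 8 tested. Myc had 3992 ± 460 normalised reads in leukaemia, against 438 ± 117 in myeloid cells (9.12-fold higher, limma log2 difference 2.30, adjusted p = 2.57e-10). Its dimer partner Max was 5.75-fold lower, and Mxd1, which competes with MYC for MAX, was 39.8-fold lower (1161 ± 99.5 in leukaemia, against 46282 ± 9150 in myeloid cells). Myc, Max and Mxd1 kept these directions under each scaling tried.

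Replication and cell cycle genes moved with the group as the purine enzymes did: 16 of 19 tested were higher and 3 lower (median log2 difference 1.20), and all 19 were higher when rescaled to the table's total. Their summed level was 123726 to 139631 normalised reads in leukaemia libraries, against 39763 to 74024 in myeloid libraries. Mcm2, part of the replicative helicase, was 5.08-fold higher, and Bub1, Bub1b and Aurka, which act in mitosis, were 1.28-, 1.19- and 1.16-fold higher. The 3 lower genes were Ccna2 (1.36-fold), Plk1 (1.25-fold) and Cdc20 (1.23-fold), which also act in mitosis and turned higher under the rescaling. The part of this list in the purine result was not tested.

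Within the groups, myeloid replicate 2 had the highest reads of the myeloid libraries for all 9 purine enzymes, from 1.15 times (Prps2) to 1.61 times (Paics) the mean of the other 4. Without it the folds ran from 2.61 (Prps2) to 5.15 (Impdh2), and all 9 enzymes were still higher in leukaemia. That library was also the highest myeloid one for 19 of 19 replication and cell cycle genes, 5 of 6 early granulocyte genes and 9 of 12 mature neutrophil genes. It was highest for 10 of 16 pyrimidine, 9 of 18 folate and 5 of 11 salvage genes, but 0 of 5 monocyte genes. Its normalised reads also had the largest sum over the table (38114500, against 32545700 to 37422400 in the other myeloid libraries). The share of all tested genes highest in that library was not computed. Averaged over genes, its deviation from the myeloid mean was 0.25 log2 units for the purine enzymes, 0.41 for replication and cell cycle, 0.66 for early granulocyte genes and -0.92 for dendritic and MHC class II genes. Myeloid replicate 4 had a similar -0.90 for the last list but 0.02 for the purine enzymes. Dendritic and MHC class II genes summed to 1024 to 2380 normalised reads in leukaemia libraries, against 60839, 5742, 42968, 5846 and 39267 in myeloid replicates 1 to 5, and myeloid replicates 2 and 4 were the low ones. What part this has in the spread of the purine enzymes was not tested. Leukaemia libraries deviated by -0.03 to 0.02 for the purine enzymes.

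**Figure D4:**
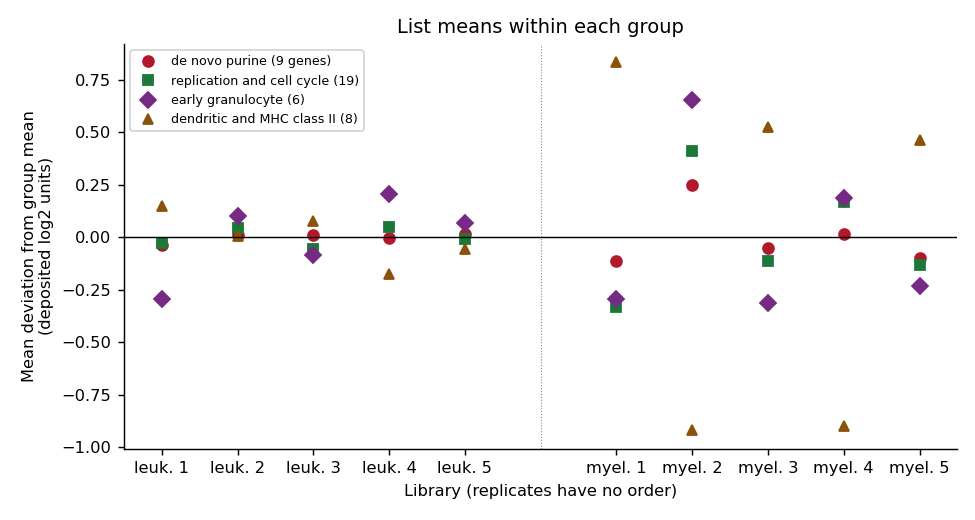
Mean deviation from the group's own mean, in deposited log2 units, of 4 gene lists in each library, leukaemia on the left and myeloid on the right. The purine enzymes (red circles) stay near 0 in the 5 leukaemia libraries and stand highest, at 0.25, in myeloid replicate 2.

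Likeness over the 10 libraries was measured as the root mean square difference of centred deposited values, among the other 8078 tested genes. Genes with a like difference between the groups score as near by this measure. Impdh2 was most like Srm, spermidine synthase (0.0740 log2 units), and then Pa2g4 and Acy1. Atic was most like Tln2 (0.101), followed by the chaperone genes Hspd1 and Hsp90aa1. Paics was nearest to Ipo5 (0.0684) and Ctps, a CTP synthase (0.0747), then Timeless. Ppat was nearest to G3bp1 (0.0651), Dctd and Erh, and Gart to Trap1 (0.0569), Farsa and Erh. Prps1 had Gspt1 (0.0517), Ssrp1 and Nudt5, Prps2 had Canx (0.0490), L3mbtl2 and Nup107, Pfas had Zbtb12 (0.0761), Pter and Il1rl2, and Adsl had Rps3a1 (0.0565), Exosc5 and Rcl1. No enzyme of the pathway was among the 3 nearest genes of another. On this scale the closest enzymes to each other were Ppat and Paics, at 0.0892 log2 units, and Atic and Impdh2 stood 0.122 apart. In mean normalised reads Ppat (4.58-fold) and Paics (3.15-fold) were less alike, and reads from their 5′ overlap cannot be told apart.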

How the data were processed

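Messenger RNA from 5 GFP+ leukaemia and 5 GFP-CD11b+ myeloid samples was sequenced after TRIzol extraction and NEBNext Ultra library preparation, per the labels' protocols. The authors deposited 1 table of log2 values that had been normalised and variance-stabilised. The submitters' processing notes name DESeq2 and HISAT2 (as 2.0.4 and as 2.2.1); genome build, annotation, counter and strand setting are not given in the sources used here. Groups were taken from the sample titles, since the cell type field reads as leukaemia for all samples. The labels do not say that samples came from separate mice, so p-values measure only the spread between these samples, and they name no batch.

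All libraries share the lowest deposited value, 8.1823, taken as 0 reads. Inverting the variance-stabilising function from it gave normalised reads, and the step of 1 read gave size factors. Within 0.1 read, 100% of values up to 300 reads came out whole in each library. Differences of the deposited log2 values shrink the change of genes with low counts, so folds are ratios of mean normalised reads.

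The deposited values were fitted with limma 3.58.1 in R 4.3.3 (leukaemia minus myeloid, trended prior variance, two-sided, Benjamini-Hochberg adjustment over 8079 genes whose mean lay over 1 unit above the lowest value, about 145 normalised reads). Because the table held genes selected for a difference, adjusted p-values give no false discovery rate for all expressed genes. Ratios used exact permutation in Python 3.11.15 with SciPy 1.17.1. Lengths and shared sequence came from a GENCODE annotation that holds 10133 of the 10141 names, and promoters from RefSeq (GRCm38.p6). Alternatives were other filters, scalings and pseudocounts, voom, a replicate block, and each library left out.

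The enzymes, lists and tests were chosen with earlier results of these data known. The rule for named genes takes every enzyme, the highest, lowest and most abundant gene of each list, and the 3 nearest genes to each enzyme. Chosen after their values were seen were Gmps, Adss, Nme1, Nme2, Prpsap1, Prpsap2, Hprt, Aprt, Slc28a2, Slc29a3, Samhd1, Ampd3, Nudt16, Mthfd1, Dhodh, Umps, Max, Bub1, Bub1b, Aurka, Plk1, Cdc20, Csf1r and Cx3cr1.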

Additional observations from a re-analysis of the deposited data

How the results depend on the processing

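The deposited values carry the authors' normalisation, and the reads of the table are not full sequencing depths. Over 21 alternative settings, 9 enzymes were higher and 0 lower in each. Their log2 differences stayed between 0.92 (lowest for Prps2) and 2.92 (highest for Impdh2), with the highest adjusted p at 1.33e-06 (limma, Pfas). Of 315 recomputed values in all, 311 kept their direction and side of the threshold or, for counts, stayed within 1.5 times; 3 no longer passed and 1 count moved further. Single genes were less stable: of 162 listed genes tested, 22 changed call under the rescaling or the quantile normalisation, none of them an enzyme. Rescaling libraries to the table's total moved the median of all tested genes to 0.43 and that of the enzymes to 2.38; quantile normalisation gave 0.09 and 1.55. Under that rescaling 5 regulators were higher, against 3.

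Both groups carry replicate numbers 1 to 5, which the labels do not tie to a mouse. Same-numbered samples correlated at 0.130, 0.232, 0.316, 0.290 and -0.0216; replicate 5 was under 0.1, and 2 of 5 correlated best with their own number, so the numbers were not treated as pairs, although 4 of 5 were over 0.1. With the replicate block 9 enzymes were higher and 0 lower. A sign-flip test by replicate number, whose smallest p is 0.0625, gave that p for the Prps1 to Prps2 ratio (log2 difference 0.40), Impdh2 to Gmps (1.34) and Impdh2 to Adss (1.71); the last 2 were added after seeing the data. No pair of enzymes can pass that test. Leaving out each library in turn gave 0.35 to 0.46 for Prps1 to Prps2, and 19 to 21 differing pairs of enzymes against 23 (27 on the deposited scale; both chosen after seeing the data). An Impdh1 to Impdh2 ratio was not run, as Impdh1 was not analysed here.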

Other observations

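Serine, glycine and glutamine genes, which supply the nitrogen and carbon of the purine ring, were higher in 6 of 10 tested cases and lower in 4 (7 higher and 1 lower when rescaled to the table's total or after quantile normalisation). Psat1, of serine synthesis, had 4791 ± 386 normalised reads in leukaemia, against 1252 ± 325 in myeloid cells (3.83-fold higher), while Glul, glutamine synthetase, was 2.25-fold lower. Glud1, glutamate dehydrogenase, was 1.51-fold lower but was not called under either of the other scalings. Of 5 tested deoxynucleotide genes 2 were higher and 3 lower: Rrm1, the large subunit of ribonucleotide reductase, had 13131 ± 1157 normalised reads in leukaemia, against 5548 ± 1540 in myeloid cells (2.37-fold higher), and Glrx, a glutaredoxin, was 6.76-fold lower.

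Other leucocyte lists were counted as a description of the sorted cells. Among mature neutrophil genes Retnlg was 597-fold and S100a9 38.8-fold lower, and of the fusion programme Meis1 was 38.7-fold higher. Meis1 lay under the filter's level in myeloid cells (96.6 normalised reads), so its direction was fixed by the filter. Early granulocyte genes were higher in 4 of 6 tested cases, among them Mpo (7.55-fold) and Ctsg (12.8-fold), while Fcnb was 7.64-fold lower. Monocyte genes were lower in 5 of 5 (Ccr2 4.94-fold), but in 3 of 5 after quantile normalisation, without Csf1r and F13a1, and in 2 of 5 when rescaled, without Cx3cr1 as well. Lower too were dendritic and MHC class II genes in 6 of 6 (Cd74 21.2-fold). Of 4 macrophage genes 1 was higher (Vcam1) and 2 lower (Slc40a1 7.16-fold). Of 3 T and NK genes 1 was higher (Nkg7) and 2 lower (among them Gzma, with a mean of 0.58 normalised reads in leukaemia, against 1097 in myeloid cells), and of 8 B cell genes 1 was tested and higher (Cd79b, not called after quantile normalisation). No erythroid or megakaryocyte gene passed the filter. Summed erythroid genes held 12.7 to 69.0 normalised reads in leukaemia libraries and 101 to 683 in myeloid libraries.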
